A study of Homo sapiens with 4 samples.

Results

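ACKR3, CXCR4, CXCL12, the inhibitory G protein subunits GNAI1, GNAI2 and GNAI3 and the arrestins ARRB1 and ARRB2 were followed in LNCaP, an androgen-responsive human prostate cancer line. The arrays measured total RNA from LNCaP cells given exosomes, small secreted vesicles, from the androgen-independent prostate cancer line PC-3 in 2 samples. In the other 2 the cells were labelled as given no agent, and the treatment protocol says that they received PBS, a buffer. The dose of exosomes and the time of exposure are not given in the labels. All cells grew in the same serum-containing medium, and the labels do not say whether the 2 samples of a group were separate cultures, so the spread between them may be technical. The members were every probe set, a group of probes that reads 1 transcript region, annotated to exactly 1 of these 8 genes. They came to 29 of 44988 single-gene probe sets and covered 7 of the 8 genes, out of 18132 genes measured; ARRB2 was not analysed here. The set was chosen by the measured differences of ACKR3 and GNAI1 between exosome and PBS arrays, and the other genes joined as their partners. The values of that contrast are therefore given as a description and not as independent evidence.

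CXCL12 is a chemokine secreted by stromal cells, in bone marrow above all, and it draws cells that carry its receptor CXCR4. CXCR4 signals through inhibitory G proteins, whose alpha subunits GNAI1, GNAI2 and GNAI3 lower cyclic AMP by restraining adenylyl cyclase and release the beta-gamma dimer when activated. ACKR3, formerly CXCR7, binds CXCL12 and CXCL11 as well, recruits arrestins rather than driving classical G protein signals, and takes the chemokine into the cell, which lowers the amount outside it. ARRB1 and ARRB2 encode the beta-arrestins, which bind activated receptors and take them to the endocytic machinery. In prostate cancer this axis is best known for homing of tumour cells to bone.

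The upstream regions of GNAI1 and GNAI3 are shown because these genes encode close relatives with unlike log2 fold changes, exosome minus PBS. In their brightest probe sets these were -0.40 for GNAI1 and -0.03 for GNAI3, and the difference was not tested. RefSeq's table for GRCh38.p14 had entries for 6 of the 8 members. Each sequence is the 250 bases before the annotated start, 5′ to 3′ on the + strand, for GNAI1 the first of the 2 starts listed. The GNAI1 region is chr7:80134581-80134830 and the GNAI3 region chr1:109548365-109548614. Capitals mark matches on either strand to the letters GGGCGG of a GC box, CACGTG of an E-box, CCAAT, or the TATA box motif TATAAA.
GNAI1: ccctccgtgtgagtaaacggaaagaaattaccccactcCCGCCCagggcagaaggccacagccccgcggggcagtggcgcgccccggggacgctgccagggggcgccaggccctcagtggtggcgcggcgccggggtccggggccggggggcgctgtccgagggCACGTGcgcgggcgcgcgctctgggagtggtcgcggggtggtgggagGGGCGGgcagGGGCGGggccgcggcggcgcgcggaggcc
GNAI3: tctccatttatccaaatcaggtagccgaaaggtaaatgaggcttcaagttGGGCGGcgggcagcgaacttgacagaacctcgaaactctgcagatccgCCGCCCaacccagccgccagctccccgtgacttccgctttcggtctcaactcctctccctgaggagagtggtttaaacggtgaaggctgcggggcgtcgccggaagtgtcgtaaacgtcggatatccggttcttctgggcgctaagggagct

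The GNAI1 region held 3 matches to GGGCGG and 1 to CACGTG, and the GNAI3 region 2 to GGGCGG and none to CACGTG. Neither held CCAAT or TATAAA. Of 35114 upstream regions of this length, 42.6% held GGGCGG, 6.35% CACGTG, 32% CCAAT and 10.7% TATAAA. G and C made up 79.6% of the GNAI1 region and 57.6% of the GNAI3 region, against a median of 58.0%. The GNAI1 region had 34 CG pairs and the GNAI3 region 21, where the median region had 11. The region before the second GNAI1 start, not printed, held 0 matches to any of these motifs. It had 56.8% G and C and 16 CG pairs, so the contrast with GNAI3 depends on the start taken. These matches describe the letters only, and binding was not measured.

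ACKR3, the scavenging receptor, was lower with PC-3 exosomes in all 4 of its probe sets, with no overlap between the groups in any of them. Over all probe sets 20.5% had both exosome arrays below both PBS arrays. The brightest of the 4 for ACKR3, 11722598_s_at, read 374 and 395 on the exosome arrays against 590.3 and 663 on the PBS arrays. On the exosome arrays 11722597_a_at read 318 and 319, and on the PBS arrays 484 and 414. Probe set 11744541_a_at read 309 and 313 after exosomes and 456 and 410.4 after PBS. In each of these the 2 exosome arrays lay close together, and the wider spread was on the PBS side. Probe set 11752501_a_at read 230.3 and 244 with exosomes against 369.7 and 310.2 with PBS, the widest PBS pair of the 4 on the log2 scale.

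Expressed as log2 fold changes, exosome minus PBS on values plus 1, the 4 ACKR3 probe sets lay between -0.70 and -0.48. For the brightest the exosome mean was 384 ± 15.2 and the PBS mean 626 ± 51.1 (SD, n = 2 each), 1.63 times lower, with a log2 fold change of -0.70 (SE 0.075). Exosome arrays were lower than its PBS arrays by 0.58 to 0.82 over the 4 cross-group pairs, while the arrays of a group differed by 0.080 with exosomes and 0.17 with PBS. The remaining 3 had log2 fold changes of -0.49 (SE 0.084), -0.48 (SE 0.073) and -0.51 (SE 0.094). The values of the gene that led to this choice were limma adjusted p = 0.016 over all probe sets and 0.0028 over 18132 genes, each read by its brightest probe set. Over all probe sets the other 3 had an adjusted p between 0.067 and 0.120, outside the threshold of 0.05. The 4 probe sets read 1 gene on the same arrays and are not replicates of each other.

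Leaving out any 1 of the 4 arrays kept the log2 fold change of the brightest ACKR3 probe set between -0.78 and -0.62. In the gene comparison it stayed past the threshold each time, at an adjusted p of 0.0200 to 0.0499. In the comparison of all probe sets it missed the threshold each time, at 0.301 to 0.387. With limma's eBayes without a trend, or with the replicate number as a block, ACKR3 missed the threshold in both comparisons, at adjusted p = 0.054 and 0.085 over genes and 0.138 and 0.301 over probe sets. As the mean of its probe sets ACKR3 had -0.54 (SE 0.061). In RNA from whole cultures, fewer cells with a transcript and less of it per cell cannot be told apart.

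GNAI1, the inhibitory alpha subunit with 3 probe sets, was also lower on both exosome arrays in each of them, as were 20.5% of all probe sets. Probe set 11722802_at read 219 and 240.2 with exosomes and 306 and 299 with PBS. Probe set 11722803_s_at read 163 and 179.8 after exosomes and 248 and 247 after PBS. Here the PBS arrays were nearly level and the exosome arrays differed, the reverse of ACKR3. The dimmest, 11749798_a_at, read 61.9 and 75.9 with exosomes against 81.9 and 81.5 with PBS, so exosome replicate 2 lay nearer to the PBS arrays than to exosome replicate 1.

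The GNAI1 log2 fold changes were -0.40 (SE 0.076), -0.53 (SE 0.079) and -0.25 (SE 0.11) in that order. The brightest, 11722802_at, had an exosome mean of 229 ± 15.3 and a PBS mean of 302 ± 5.41 (SD, n = 2 each), 1.32 times lower. It was just inside the threshold in the gene comparison, with a limma adjusted p = 0.0498, and outside it over all probe sets, where its adjusted p was 0.134 and that of 11722803_s_at 0.063. Removing any single array ended that call, at an adjusted p of 0.191 to 0.353 and a log2 fold change between -0.47 and -0.33. It was also lost with a pseudocount of 16 (limma adjusted p = 0.054), without a trend in eBayes (adjusted p = 0.176) and with the replicate block (adjusted p = 0.255).

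**Figure D1:**
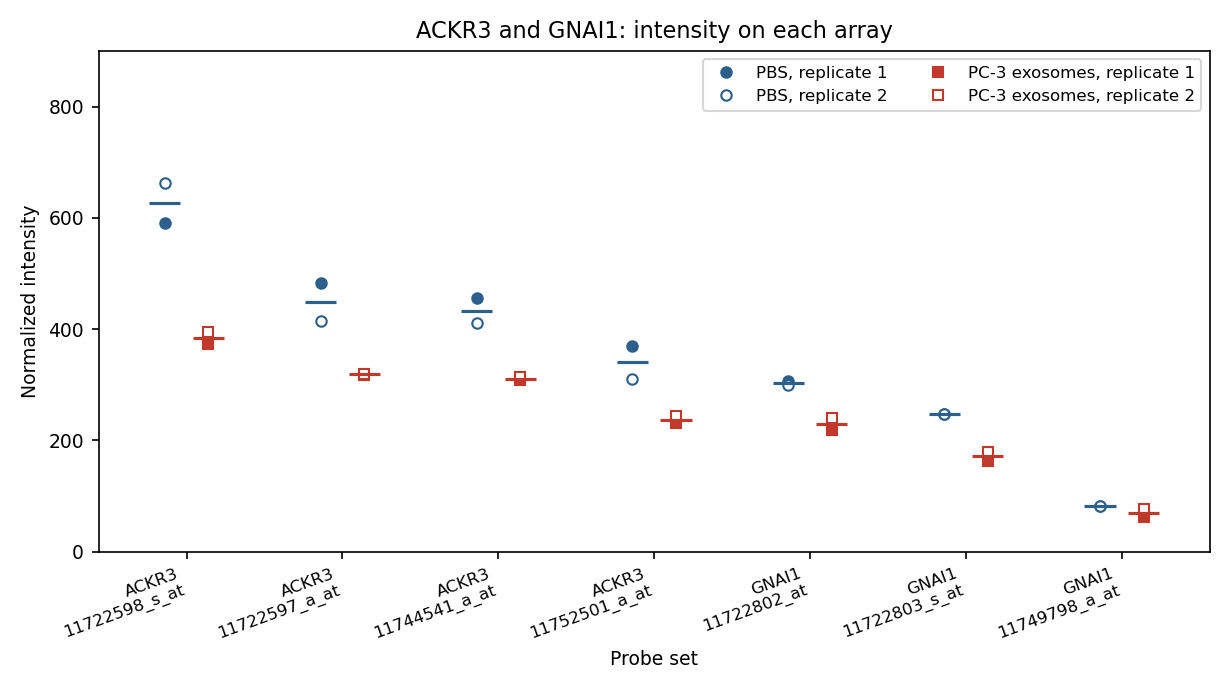
Normalized intensity (vertical axis, from 0) of the 4 ACKR3 and 3 GNAI1 probe sets (horizontal axis) on each of the 4 arrays; circles are PBS, squares PC-3 exosomes, filled for replicate 1 and open for replicate 2, and bars are group means. In all 7 probe sets both exosome arrays sit below both PBS arrays, from 374 and 395 against 590.3 and 663 in the brightest to 61.9 and 75.9 against 81.9 and 81.5 in the dimmest. The same held for 20.5% of all probe sets.

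Of the 29 member probe sets, 1 was past the threshold as lower and 0 as higher in the limma fit over all probe sets, and 7 had an unadjusted p under 0.05, as had 3991 of all 44988 probe sets. Over all of these 0.0200% were called lower (9 of them) and 0.238% higher (107). Both exosome arrays lay below both PBS arrays in 12 of the 29 members, 7 of them of ACKR3 and GNAI1, and in 20.5% of all probe sets. They lay above in 4 members and in 7724 of all 44988 probe sets. The median log2 fold change was -0.04 over the members and -0.01 over all probe sets. Since ACKR3 and GNAI1 were picked for this contrast, these shares describe the members and nothing is read from them.

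GNAI2 and GNAI3, the other inhibitory alpha subunits, had log2 fold changes near 0 in most of their probe sets. The brightest GNAI2 probe set, 11717890_x_at, read 1081 and 1009 with exosomes and 1026 and 1059.5 with PBS, with interleaved arrays. Its log2 fold change was 0.003 (SE 0.057), with a 95% interval of -0.13 to 0.14. The brightest GNAI3 probe set, 11727775_s_at, read 2319 and 2398 with exosomes and 2462 and 2356 with PBS, again overlapping. Its log2 fold change was -0.03 (SE 0.047), with an interval of -0.14 to 0.08.

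Over its 7 probe sets GNAI2 ran from -0.04 to 0.08, with 6 overlapping between the groups and 1 lower on both exosome arrays. That one, 11757732_x_at, read 801 and 807 with exosomes and 827 and 824 with PBS, a log2 fold change of -0.04. Probe sets whose names end in x_at hold probes that can also bind other transcripts, and 4 of the 7 for GNAI2 are of this kind. The dimmest pair, 11746875_x_at and 11753213_x_at, had the widest PBS spreads of the members on the log2 scale, with intensities of 70.8 and 49.2 and of 75.7 and 48.3. Their intervals reached from -0.28 to 0.44 and from -0.41 to 0.48, wider than those of the other GNAI2 probe sets.

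GNAI3 ran from -0.03 to 0.13 over 4 probe sets, of which 3 overlapped. Probe set 11727777_at was higher on both exosome arrays, at 274 and 268 against 263 and 235, with an interval of -0.06 to 0.31. The 95% interval of GNAI1's brightest probe set was -0.57 to -0.22, and that of its dimmest, 11749798_a_at, was -0.51 to 0.007, which included 0. The difference between the subunits was not tested, since GNAI1 was chosen by its value in this contrast.

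CXCR4, the signalling receptor of CXCL12, was dim on all arrays. Its 4 probe sets read 14.8 to 61.8 and lay below the median of each array, 110.8 to 112.4. The brightest, 11739094_a_at, read 60.1 and 55.7 after exosomes and 61.8 and 59.6 after PBS. These arrays overlapped, and the log2 fold change was -0.07 (SE 0.089) with an interval of -0.27 to 0.14. Probe set 11728191_x_at was slightly higher on both exosome arrays, at 30.9 and 30.5 against 29.6 and 29.9. Probe set 11728190_s_at was lower, at 15.8 and 14.8 against 17.9 and 16.7, a log2 fold change of -0.17 (SE 0.076), but these values lie under the background control medians of 18.7 to 19.6. The remaining 11728189_a_at overlapped, with PBS arrays at 26.7 and 34.3 on either side of the exosome arrays at 28.9 and 29.9. CXCR4 thus had probe sets in both directions, none past the threshold, with intervals between -0.34 and 0.24.

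CXCL12, the ligand, was dim as well, at 13.2 to 86.4 over 5 probe sets, all below the array medians. The 23 background control probe sets, made to show non-specific signal, had medians of 18.7 to 19.6 per array, and 4 of the 5 CXCL12 probe sets were near or below these. Single controls ranged from 10.4 to 3750, with means per array of 278 to 291. A background for a given probe set is not known, so the size of any fold there is uncertain. The brightest, 11718743_a_at, read 81.6 and 80.5 with exosomes and 84.4 and 86.4 with PBS, without overlap, and its log2 fold change was -0.07 (SE 0.082). Probe set 11720818_a_at went the other way, at 18.3 and 19.9 against 16.1 and 15.5, a log2 fold change of 0.26 (SE 0.076, interval 0.08 to 0.43). It was not past the threshold over all probe sets (limma adjusted p = 0.367). The others had log2 fold changes of 0.12, -0.09 and 0.06, so the 5 probe sets disagreed in direction.

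ARRB1, the beta-arrestin with measured probe sets, was also below the array medians. Probe set 11742838_at read 67.8 and 65.2 with exosomes and 74.4 and 62.9 with PBS, with the exosome arrays between the PBS arrays. Its log2 fold change was -0.04 (SE 0.10), with an interval of -0.28 to 0.20. Probe set 11760185_s_at read 42.6 and 40.5 with exosomes against 52.3 and 43.8 with PBS, without overlap, at -0.20 (SE 0.11). Its interval of -0.44 to 0.05 included 0.

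**Figure D2:**
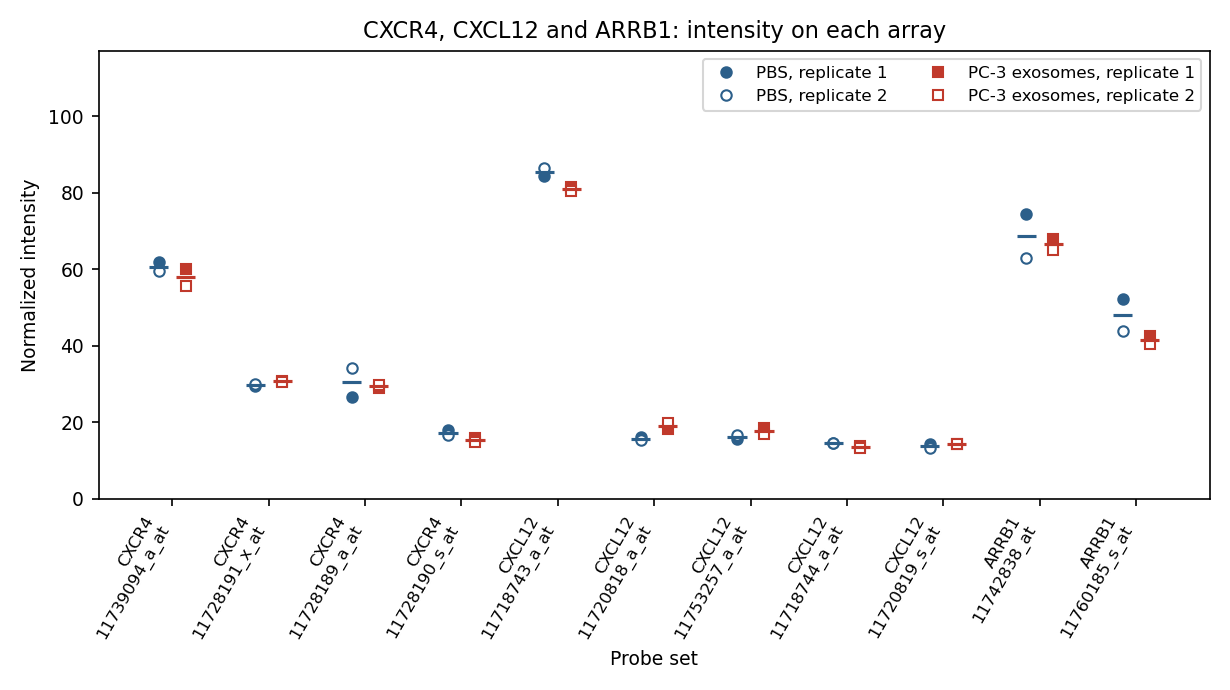
Normalized intensity (vertical axis, from 0) of the 4 CXCR4, 5 CXCL12 and 2 ARRB1 probe sets on each array, with symbols as in the plot of ACKR3 and GNAI1 and bars at the group means. All read 86.4 or less, under the array medians of 110.8 to 112.4, and the exosome arrays stand above the PBS arrays in some probe sets of CXCR4 and CXCL12 and below them in others.

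**Figure D3:**
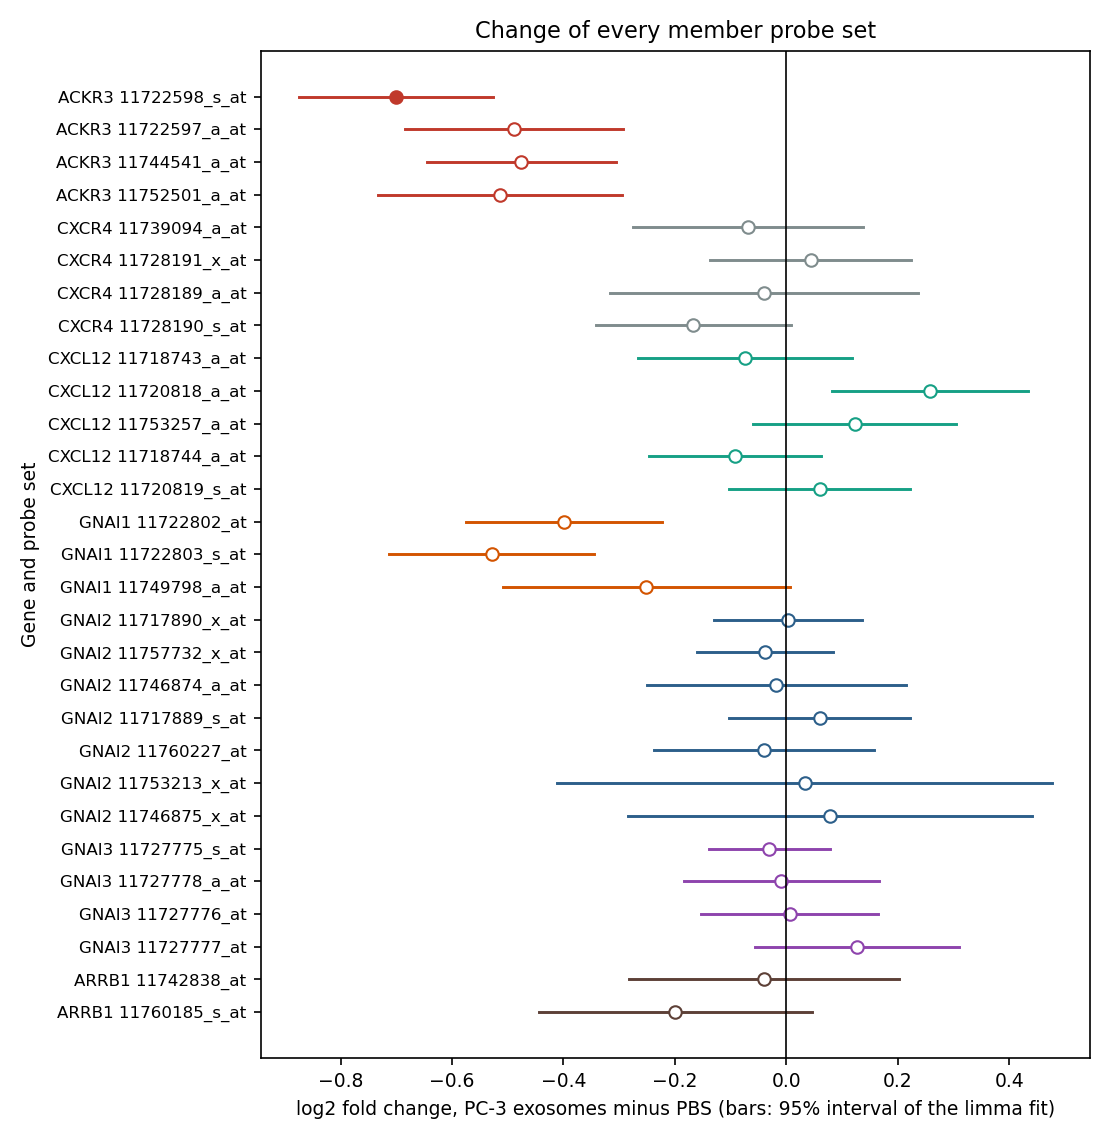
Log2 fold change (horizontal axis, exosome minus PBS) of each of the 29 member probe sets (vertical axis), with bars for the 95% interval of the limma fit and a filled point where the adjusted p over all probe sets was under 0.05. The 4 ACKR3 and 3 GNAI1 points lie between -0.70 and -0.25, and the remaining 22 between -0.20 and 0.26.

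The choice of scale bears on the members that lay near 0. The 24 poly-A spike-in probe sets, which read control RNAs added to a sample, were on average 0.14 higher on the exosome arrays on the log2 scale. With each array centred on them, 748 probe sets were called lower, against 9 in the main scaling, and in the gene comparison 60 were higher and 326 lower, against 127 and 34. The median of all probe sets was then -0.15, and the brightest probe sets moved to -0.21 for CXCR4, -0.21 for CXCL12, -0.14 for GNAI2, -0.17 for GNAI3 and -0.18 for ARRB1. On that scale ACKR3 stood at -0.84 and GNAI1 at -0.54, both lower than that median. In these fits limma's prior degrees of freedom were infinite, against 5.65 for probe sets in the main scaling. A feature's own variance then had no weight, and the part of this in the counts was not tested. Whether equal amounts of control RNA were added per amount of sample RNA is not known.

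**Figure D4:**
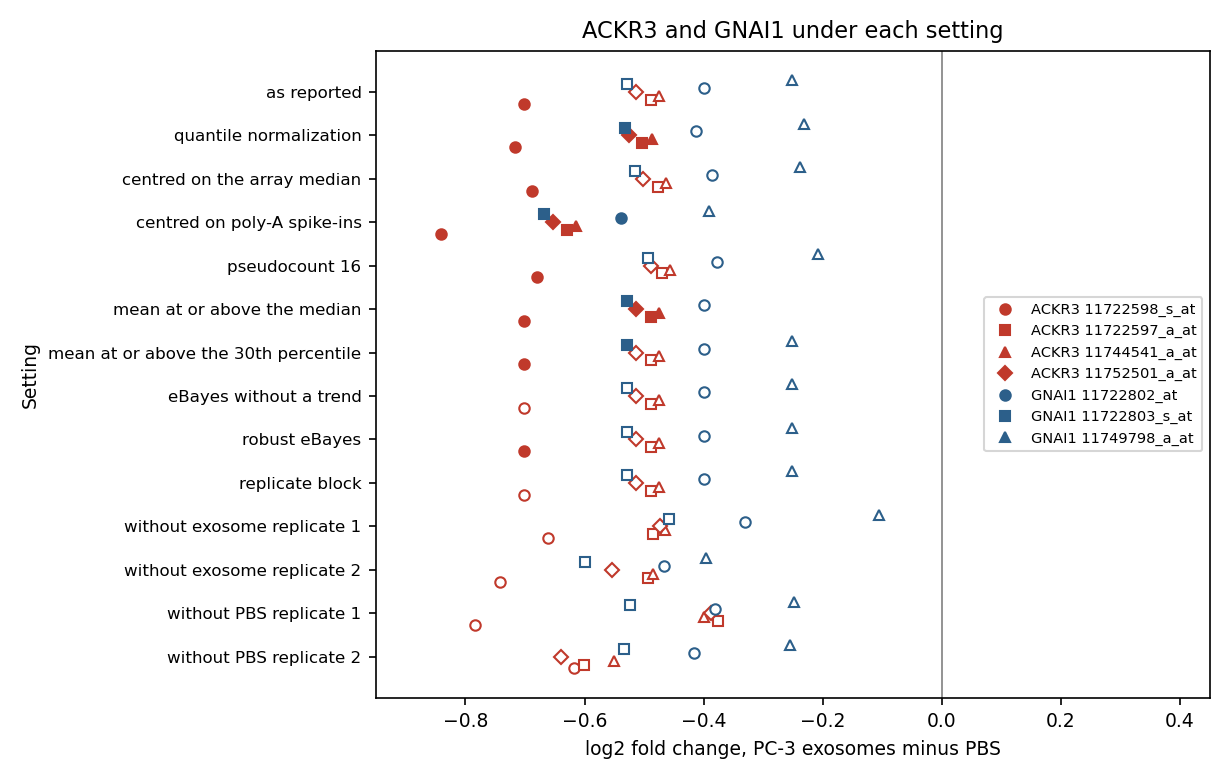
Log2 fold change (horizontal axis, exosome minus PBS) of the 4 ACKR3 probe sets in red and the 3 GNAI1 probe sets in blue under each processing setting (vertical axis), with filled points where the adjusted p over the probe sets tested was under 0.05. Every point lies below 0, from -0.84 for the brightest ACKR3 probe set against the poly-A spike-ins to -0.11 for the dimmest GNAI1 probe set with exosome replicate 1 left out, and a missing point was filtered out as dim.

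Genes whose 4 array values, centred on their own mean, lay closest to those of ACKR3 were sought among 9065 other genes at or above the median level. DAPK1, a death-associated kinase, was nearest, at a Euclidean distance of 0.095 on the log2 scale, with 183 and 198 against 307 and 315. RIPOR2 followed at 0.18 and DSEL, a dermatan sulfate epimerase-like gene, at 0.23. RNLS, which encodes renalase, lay at 0.31, the receptor TNFRSF19 at 0.31 and WFDC12, a secreted protease inhibitor-like gene, at 0.32. GNAI1 came next at 0.34, with 6 genes nearer. Of the other members CXCL12 had 1262 nearer, CXCR4 1988, GNAI3 2987, GNAI2 4348 and ARRB1 4676. With 4 arrays in 2 groups this likeness mostly reflects the size of the group difference, and it carries no p. ACKR3 and GNAI1 were both picked for this contrast, so nothing is read from their nearness.

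Around the members, 10 lists of genes of the chemokine and inhibitory G protein pathway held 179 genes, of which 166 were measured. In the gene comparison 1 of the 166 was called lower and 0 higher, against 0.188% lower and 0.700% higher over all 18132 genes (with an unadjusted p under 0.05 there were 10 lower and 8 higher, and over all genes 935 and 1045). The median log2 fold change of the 166 was -0.02, and that of all genes -0.01. RGS2, which speeds the switching off of G protein alpha subunits, was the gene that fell. It read 103 and 86.2 with exosomes and 139 and 145 with PBS, a log2 fold change of -0.58 (SE 0.099, limma adjusted p = 0.035), from a single probe set. When arrays were removed in turn it passed only without exosome replicate 1, and its log2 fold change ran from -0.71 to -0.46. It also missed the threshold with limma's eBayes without a trend (adjusted p = 0.144) and with the replicate block (adjusted p = 0.239).

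Among ligands and partners of the receptors 0 of 10 passed (at an unadjusted p under 0.05, 1 was higher and 2 were lower). CXCL11, the other chemokine that ACKR3 binds, read 82.8 and 75.2 on exosome arrays against 39.6 and 58.5 on PBS arrays. These values, from the brightest of its 3 probe sets, were dim, below the array medians of 110.8 to 112.4. The groups did not overlap, and the log2 fold change was 0.70 (SE 0.16) with a limma adjusted p = 0.10. Without PBS replicate 2 its adjusted p was 0.046, and over the 4 single-array removals the log2 fold change ran from 0.43 to 0.97. It also passed with quantile normalization and when centred on the spike-in controls. MIF, a cytokine that binds both receptors, had -0.02 and ADM, adrenomedullin, which ACKR3 also takes up, had -0.04.

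Of 19 other atypical and chemokine receptors 0 passed and 15 were below 0, as were 10154 of all 18132 genes. The median of the 19 was -0.08, and 14 of them were dim, below the median on every array. ACKR1, the scavenger of red cells and venules, had the smallest p, at -0.20 (limma adjusted p = 0.319). Of 13 other alpha subunits 0 passed, with GNAQ, which activates phospholipase C, at -0.18 (adjusted p = 0.331). Of 16 beta and gamma subunits 0 passed, with GNG7 at 0.20 (adjusted p = 0.288). The receptor kinases and visual arrestins had 0 of 9, with GRK1, the kinase of rhodopsin, at 0.27 (adjusted p = 0.162). In these 4 lists 3 genes were higher and 3 lower before adjustment, at p under 0.05.

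In the other lists the medians were also close to that of all genes. Adenylyl cyclases, protein kinase A and its phosphodiesterases had 0 of 19 past the threshold, a median of 0.008 and ADCY3 at 0.13 (limma adjusted p = 0.425). Potassium channels opened by beta-gamma dimers had 0 of 3 and KCNJ9 at -0.06. Downstream kinases and effectors had 0 of 29, with PLCB4, a phospholipase C, at -0.23 (limma adjusted p = 0.293). Receptor internalization and sorting had 0 of 23, a median of 0.03 and STAM2, an endosomal sorting adaptor, at 0.16 (limma adjusted p = 0.417). At an unadjusted p under 0.05 these 4 lists held 3 higher genes and 2 lower ones.

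**Figure D5:**
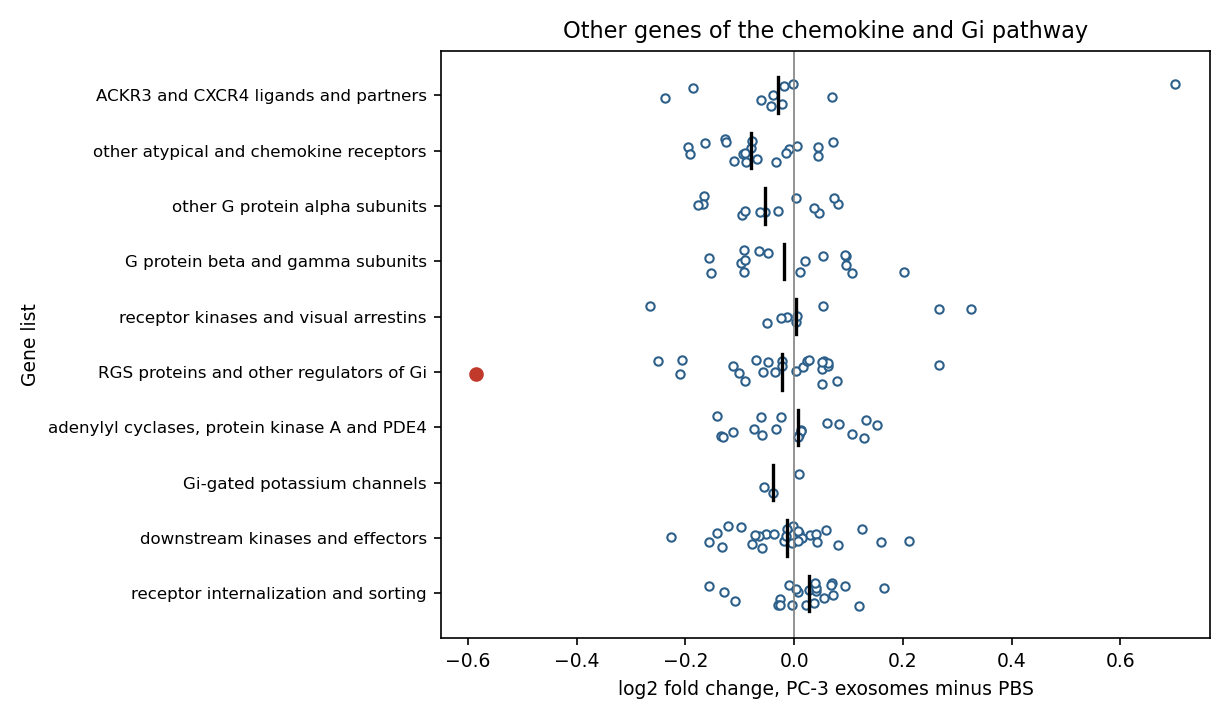
Log2 fold change (horizontal axis, exosome minus PBS) of the 166 measured genes in 10 pathway lists (vertical axis), with a black bar at each list's median and a filled point where the adjusted p over all genes was under 0.05. The filled point at -0.58 is RGS2, the point at 0.70 is CXCL11, and the medians run from -0.08 to 0.03.

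The arrays bore the markers of the labelled line, although the labels' extraction text names a brain tissue. All 9 measured luminal prostate genes, KLK3 among them, were above the median on every array, with a summed intensity of 44539 to 45551 with exosomes and 44495 to 44673 with PBS. Of 8 fibroblast and stroma markers, a source of CXCL12 in tissue, 8 were below the median on each array, and their sum was 415 to 429 with exosomes and 409 to 433 with PBS. Endothelial markers summed to 821 to 851 and 812 to 874, leukocyte markers to 866 to 888 and 842 to 925, and brain markers to 1673 to 1679 and 1525 to 1605. Of these, 5 of 8 endothelial, 3 of 7 leukocyte and 3 of 8 brain markers were also above the median on every array. A place above the median alone therefore does not mark a cell type. Of 12 PC-3 genes 2, LCN2 and CXCL8, were called higher, while 6 of the 12 were below 0. The sum of the 12 was 1771 to 1865 with exosomes against 1570.0 to 1571, and that of the 10 others 1101 to 1117 against 1162 to 1173. All 10 proliferation genes were below 0, 2 of them past the threshold, with a sum of 21091 to 21559 against 24275 to 24600.2. Of these calls 0 were left with any single array removed, with the replicate block or with eBayes without a trend, while 6 passed with quantile normalization and 8 against the spike-ins; before adjustment 9 had p under 0.05. The part of these differences in the values of ACKR3 and GNAI1 was not tested. For beta-actin, the 3'/5' probe ratio used to judge RNA integrity was 5.39 to 6.82 with exosomes and 5.74 to 7.17 with PBS. For GAPDH the ratio was much lower, at 1.34 to 1.35 with exosomes and 1.32 to 1.33 with PBS.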

How the data were processed

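Gene expression was measured on 4 Affymetrix arrays, 2 per group. The authors deposited 1 normalized intensity per probe set on a linear scale; per the submitters' processing notes MAS5 and RMA were used, with no role, order or version stated there. Of 49395 probe sets 102 were controls, 1832 named several genes and 2473 none, and these were left out. Gene names came from the platform annotation, updated to RefSeq symbols by gene ID.

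The log2 of each value plus a pseudocount of 1 was fitted with limma 3.58.1 in R 4.3.3 (lmFit, eBayes with a trend; exosome minus PBS), with two-sided tests. Adjustment was by Benjamini-Hochberg over 44988 probe sets or, with the brightest probe set standing for each gene, over 18132 genes; the threshold was 0.05. With 2 residual degrees of freedom each p rests on the variance model, and an exact permutation test cannot go below 0.333. The fit was tested on simulated data. The number of arrays limits the precision.

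Named genes were all member probe sets, from each pathway list up to 4 genes past the threshold or else the 1 with the smallest p, and the 6 genes nearest to ACKR3; ARRB2, MIF, ADM, KLK3, LCN2 and CXCL8 were named besides. The members and lists were chosen with earlier results of these data known. The labels give the samples replicate numbers without saying what they stand for, so no block was used. Figures were drawn with matplotlib 3.10.9.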

Additional observations from a re-analysis of the deposited data

How the results depend on the processing

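The fit over all probe sets called 107 higher and 9 lower, and the gene comparison 127 and 34. With quantile normalization the probe sets gave 173 higher and 28 lower and the genes 68 lower. Centred on the poly-A spike-ins, 748 probe sets were lower, and 60 genes were higher and 326 lower, with infinite prior degrees of freedom. Testing only features at or above the median level gave 185 and 34 probe sets and 213 and 84 genes, and at or above the 30th percentile 15 probe sets and 57 genes were lower. At an adjusted p under 0.10 there were 185 and 27 probe sets and 203 and 69 genes. limma's eBayes without a trend called 10 and 0 probe sets (3808 at an unadjusted p under 0.05) and 18 and 3 genes. With the replicate number as a block, limma called 0 and 0 probe sets (3198 at an unadjusted p under 0.05) and 2 and 0 genes; the deviations of samples with the same number correlated at -0.04 over genes, so the numbers are not shown to pair the samples. Leaving out an array gave 0 to 4 probe sets higher and 0 lower (2095 to 4532 at an unadjusted p under 0.05), and 28 to 40 genes higher and 4 to 7 lower.

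Over all probe sets the brightest one of ACKR3 kept its log2 fold change of -0.70 but missed the threshold with eBayes without a trend and with the replicate block, and missed it with any array left out, at -0.78 to -0.62. That of GNAI1 passed against the poly-A spike-ins, at -0.54. Against the spike-ins those of CXCR4, CXCL12, GNAI2, GNAI3 and ARRB1 moved to -0.21, -0.21, -0.14, -0.17 and -0.18. Of 355 values of member probe sets under the alternatives, 309 stayed within the pooled SD within groups or on their side of the threshold, 14 newly passed it, 6 no longer did, 26 moved and 0 of the called ones changed sign. Why calls were gained or lost was not tested, apart from fewer features or arrays in the fit where the setting itself removes them. Dim probe sets of CXCR4, CXCL12 and ARRB1 limit what could be seen there.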
